A study of Mus musculus with 48 samples.

Results

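The comparison described here set 3 libraries of arrested Ku70-/- cells given the compound L67 (5 µM) against 3 libraries of the same cells given the solvent DMSO, all read from the coding end of the Jκ1 break. The 6 libraries were taken from the 48 of the series by their labels alone (genotype, bait and treatment), and they hold 942023 of its 8250887 listed junctions. The cells were vAbl pro-B cells, mouse B cell progenitors transformed by the Abelson kinase. In both groups the Abl kinase inhibitor STI-571 (3 µM, 96 h) arrested the cells in G0-G1, and L67 or DMSO was added on the day of arrest. All 6 libraries carried the Ku70 deletion, and the methods name a single clone for the Ku70-deficient line and another for the wild-type (WT) line. Other groups of 3 libraries each are cited below where needed: WT cells arrested with DMSO, WT cells arrested with L67 (5 µM), Ku70-/- cells arrested with L82-G17 (25 µM), and cycling Ku70-/- cells without arrest. The Vκ break sites were located from further libraries, those of arrested WT cells read from the signal end with DMSO, L67 (5 µM) or L82-G17 (25 µM). The labels give no replicate numbers and do not say whether replicates were separate cultures, so the p-values measure the spread between libraries, which may be technical. The paper states 3 biological repeats for its own experiments but does not describe the L67 libraries.

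Arrest lets the RAG endonuclease cut the Igκ light chain locus on chromosome 6. RAG cuts beside a recombination signal sequence, a heptamer and nonamer next to each V and J segment, and leaves a hairpin-sealed coding end and a blunt signal end. Classical nonhomologous end joining, for which Ku70 is the end-binding subunit, ordinarily joins coding end to coding end. Without Ku70, ends are joined by alternative end joining (A-EJ), which trims ends more, makes more use of short shared bases (microhomology), and joins coding ends to signal ends (hybrid joints) far more often. L67 is known as an inhibitor of DNA ligases I and III, the ligases assigned to A-EJ. The question the design poses is what A-EJ products look like when this inhibitor is present.

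The bait primer reads outward through Jκ1, so each joint is told by how far the bait was trimmed and what it was joined to. The Jκ1 coding end and the 5′ signal side of its break are shown first, because every joint below keeps some part of one or both (mm9, plus strand). The coding end runs from the cut at its first base, with a repeat of 6 bases in capitals, and the signal side ends in the heptamer, in capitals.
Jκ1 coding end, chr6:70672556-70672593: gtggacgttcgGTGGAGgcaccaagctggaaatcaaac
Jκ1 signal side, chr6:70672526-70672555: acagccagacagtggagtactacCACTGTG

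The same 6 bases stand on both sides of the cut, as the unbroken sequence shows with both copies in capitals.
Jκ1 break, unbroken, chr6:70672527-70672582: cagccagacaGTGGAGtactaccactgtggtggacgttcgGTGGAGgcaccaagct

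A recurrent product of all 6 libraries joined the 2 copies of this repeat and lost what lay between them. Its junction, with the shared repeat in capitals, is the first of the sequences below.
Jκ1 break joint, own signal side at 70672542: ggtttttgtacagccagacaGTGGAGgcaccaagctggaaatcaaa

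It was listed 1735, 423 and 571 times in the DMSO libraries and 388, 334 and 256 times in the L67 libraries, and 94.1% of its lines carried it base for base. These are lines of 1 distinct junction, which counted once is 1 in every library. Copies of 1 molecule were not told apart from the same joint formed more than once, so neither count measures how often it arose.

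Of the Vκ sites, Igkv1-135 was the most used under DMSO and Igkv6-32 the next. Their breaks are shown coding side first, in the gene's direction, with the heptamer in capitals. Igkv1-135 (ENSMUSG00000076502.1, chr6:67559739-67560502) lies in the deletional orientation, and Igkv6-32 (ENSMUSG00000076576.1, chr6:70024018-70024578) in the inversional one.
Igkv1-135 break, chr6:67560483-67560530: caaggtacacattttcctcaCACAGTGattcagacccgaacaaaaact
Igkv6-32 break, chr6:70023990-70024037, minus strand: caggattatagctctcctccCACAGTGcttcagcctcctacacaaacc

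At the same 2 sites, the joint of each structure listed in the most libraries is given, ties being settled by lines. All 6 are coding joints, with Vκ sequence first, Jκ1 sequence after it and shared bases in capitals. These 6 show what a direct joint, a 1-bp microhomology and a longer microhomology look like at the level of bases.
Igkv1-135, direct: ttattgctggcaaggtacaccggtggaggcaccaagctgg
Igkv1-135, 1-bp microhomology: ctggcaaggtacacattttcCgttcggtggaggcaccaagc
Igkv1-135, 4-bp microhomology: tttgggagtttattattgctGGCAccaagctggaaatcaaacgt
Igkv6-32, direct: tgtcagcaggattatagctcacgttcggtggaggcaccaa
Igkv6-32, 1-bp microhomology: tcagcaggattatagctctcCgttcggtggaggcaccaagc
Igkv6-32, 2-bp microhomology: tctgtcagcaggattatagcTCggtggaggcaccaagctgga

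At Igkv1-135 the direct joint was listed 26, 28 and 37 times under DMSO and 31, 42 and 80 times under L67, after a loss of 9 bases from the bait. The 4-bp joint, with 16 bases lost from the bait, was listed 0, 35 and 53 times under DMSO and 38, 66 and 21 times under L67. At Igkv6-32 the direct joint was listed 842 times in DMSO replicate 1, against 109 and 37 in the other DMSO libraries and 73, 92 and 114 under L67. Its 2-bp joint was absent from DMSO replicate 1 and listed 32 and 70 times in the others, and 24, 32 and 45 times under L67. At Igkv1-135 the 1-bp joint was listed 21, 47 and 69 times under DMSO and 118, 37 and 11 times under L67. The 2 groups overlapped for each of these joints. Each is 1 distinct junction in every library that lists it. Copies and repeated formation were not told apart, so these counts give no measure of how often it arose.

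DMSO replicate 1 stood apart from the other 5 libraries and must be named before any result. Each library was sampled to 500000 read pairs, of which 133143, 153717 and 150309 gave a listed junction under DMSO and 163731, 168782 and 172341 under L67. Duplicate reads were kept by the authors, so the same junction is listed many times over. Counting each distinct junction once (lines identical in prey position and strand, in where the bait ends and in how both meet), the DMSO libraries held 1446, 16426 and 15283 distinct junctions and the L67 libraries 21561, 18726 and 14622. DMSO replicate 1 listed each distinct junction 92.1 times on average, against 7.59 to 11.8 times in the other 5 libraries. Its 10 most listed junctions made up 19.7% of its lines, against 1.64% to 2.13% in those libraries. The compounds named in the study's methods do not include L67, and the L67 libraries are not described there. DMSO replicate 1 is not in the study's own list of libraries. Between 13.2% and 17.9% of its distinct Vκ joints were found in each of the other libraries, against 14.8% to 22.9% among those 5 libraries, while 0.889% to 1.15% of theirs were found in it. Results below are therefore given over all 6 libraries, and values without DMSO replicate 1 or with each distinct junction counted once stand beside the main ones. With 3 libraries against 3, the exact two-sided permutation test of library means cannot give a p below 0.1, and after adjustment over the 28 measures tested every p of 0.1 became 0.215. No measure of this comparison could pass a threshold of 0.05 in that test. Intervals by the Wilson method (95%) span at most 0.319 percentage points either side of a share when all lines are counted, up to 3.28 points for distinct junctions of DMSO replicate 1, and 0.752 to 0.925 points for distinct junctions of the other 5. They cover counting error only.

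More junctions were listed for every L67 library than for any DMSO library, Vκ joints included. Junctions numbered 168285 ± 4326 with L67 and 145723 ± 11027 with DMSO (SD, n = 3 each), and the groups did not overlap (exact permutation p = 0.1). The V-J efficiency, counted here as joints that fall 200 bp or less from a Vκ break, per 100 read pairs, was 18.8%, 22.4% and 21.5% under DMSO and 23.2%, 24.4% and 24.9% under L67. L67 libraries averaged 24.1% ± 0.843 and DMSO libraries 20.9% ± 1.88 (SD, n = 3 each), a difference of 3.21 points (exact permutation p = 0.1, adjusted p = 0.215). Leaving out DMSO replicate 1 lowered the difference to 2.16 points, and all 3 L67 libraries still lay above both others. As a share of all listed junctions, Vκ joints were 70.69%, 72.9% and 71.7% under DMSO and 70.9%, 72.2% and 72.1% under L67, a difference of -0.0419 points. The groups thus differed in the number of junctions listed per read pair, and overlapped in the fraction of them that were Vκ joints. Distinct Vκ joints did not separate the groups, with 889, 12885 and 12042 under DMSO and 16959, 14843 and 11227 under L67.

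**Figure D1:**
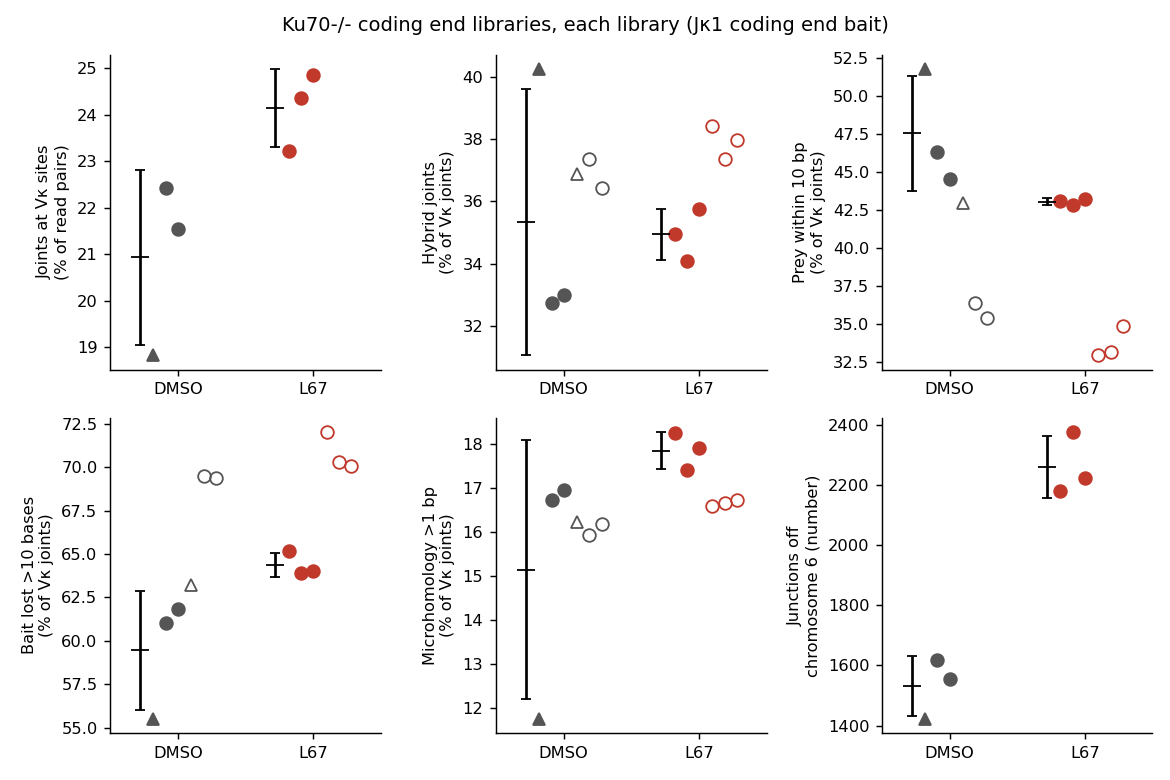
Each panel plots 1 measure for the 3 DMSO and the 3 L67 libraries of Ku70-/- cells. Filled symbols count every listed junction, and a triangle marks DMSO replicate 1. Open symbols count each distinct junction once and are not drawn for V-J efficiency and junctions off chromosome 6. Bars give the mean ± SD of the 3 libraries over every listed junction. V-J efficiency over all lines runs from 18.8% to 22.4% under DMSO and from 23.2% to 24.9% under L67, and DMSO replicate 1 lies off the other DMSO libraries in several panels.

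Hybrid joints, in which the Jκ1 coding end is joined to a Vκ signal end, made up about as much of the Vκ joints with L67 as without. Their share was 40.3%, 32.7% and 33.0% under DMSO and 35.0%, 34.1% and 35.8% under L67. The means differed by -0.388 points (exact permutation p = 1). The sign of this difference rested on DMSO replicate 1, since without it the 3 L67 libraries lay above both DMSO libraries, by 2.08 points. With each distinct junction counted once the shares were 36.9%, 37.4% and 36.4% under DMSO and 38.4%, 37.4% and 37.98% under L67, higher in L67 by 1.02 points (exact permutation p = 0.1, the smallest possible). DMSO replicate 2 at 37.36% and L67 replicate 2 at 37.37% were apart by far less than their counting intervals. Coding joints outnumbered hybrid joints by a log2 ratio of 0.57, 1.04 and 1.02 under DMSO and 0.90, 0.95 and 0.85 under L67.

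Sites in the inversional orientation gave more hybrid joints than deletional ones in every library. Among distinct joints at deletional sites the hybrid share was 29.0%, 29.0% and 27.4% under DMSO and 30.5%, 29.8% and 30.9% under L67, so the groups did not overlap. At inversional sites it was 41.7%, 41.6% and 41.3% under DMSO and 42.9%, 41.3% and 41.9% under L67, and the groups overlapped. Counted over all lines, the deletional share was 30.5%, 24.6% and 22.9% under DMSO and 26.99%, 25.9% and 29.9% under L67, with DMSO replicate 1 above all 3 L67 libraries. Of 91 Vκ sites with at least 100 joints in each of the 5 libraries other than DMSO replicate 1, the hybrid share in the L67 libraries, set against DMSO replicates 2 and 3 alone, was higher at 62 and lower at 29, with a median difference of 1.58 points.

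Vκ ends had lost more bases in the L67 libraries than in the DMSO libraries, by a small margin. Joints within 10 bp of the Vκ break, counted among joints within 100 bp, made up 51.8%, 46.3% and 44.6% under DMSO and 43.1%, 42.8% and 43.3% under L67. The difference was -4.49 points (exact permutation p = 0.1, adjusted p = 0.215), and -2.37 points without DMSO replicate 1. All 3 L67 libraries lay below all 3 DMSO libraries, and this held when each distinct junction was counted once (43.0%, 36.4% and 35.4% under DMSO, 33.0%, 33.2% and 34.9% under L67). Counted once, DMSO replicate 3 at 35.4% and L67 replicate 3 at 34.9% were apart by less than their counting intervals. DMSO replicate 1 had the highest share in its group by either count.

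Coding and signal preys differed in the same direction, again counted among joints within 100 bp of the break. For coding preys the share within 10 bp was 54.1%, 45.2% and 43.4% under DMSO and 41.6%, 41.8% and 41.9% under L67, and the mean distance lost was 15.6, 16.8 and 17.4 bp under DMSO and 18.3, 17.9 and 18.0 bp under L67. Signal preys, which start as blunt ends, lay within 10 bp in 48.4%, 48.5% and 47.0% under DMSO and 45.9%, 44.7% and 45.8% under L67. Their mean distance was 15.2, 15.5 and 15.8 bp under DMSO and 16.6, 16.7 and 16.2 bp under L67. In each of these 4 measures the groups did not overlap, though the mean distance of signal preys did overlap when each distinct junction was counted once. Of joints within 100 bp, 3.04%, 3.11% and 3.21% under DMSO and 3.66%, 3.43% and 3.40% under L67 lay more than 50 bp away, without overlap. Counted once these shares overlapped, at 3.86%, 4.47% and 4.55% under DMSO and 4.82%, 4.53% and 4.46% under L67. Among the 91 well-covered sites, again without DMSO replicate 1, the share within 10 bp was lower with L67 at 56 and higher at 35, so sites differed in direction.

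The Jκ1 coding end had also lost more bases in the L67 libraries. Vκ joints that had lost more than 10 bases from the bait made up 55.5%, 61.01% and 61.8% under DMSO and 65.2%, 63.9% and 64.0% under L67. L67 libraries were higher by 4.92 points (exact permutation p = 0.1, adjusted p = 0.215), and by 2.95 points without DMSO replicate 1. With each distinct junction counted once the shares were 63.2%, 69.5% and 69.4% under DMSO and 72.0%, 70.3% and 70.1% under L67, still without overlap. DMSO replicate 2 at 69.5% and L67 replicate 3 at 70.1% were apart by less than their counting intervals. Within each kind of joint the groups overlapped when counted once, though not over all lines. Distinct coding joints stood at 61.5%, 68.1% and 68.7% under DMSO and 71.5%, 68.4% and 69.1% under L67. Distinct hybrid joints stood at 66.2%, 71.8% and 70.6% under DMSO and 72.8%, 73.6% and 71.7% under L67. Bases shared by bait and prey were counted as kept on both sides, so the losses given here are lower bounds. The mean loss was 16.2, 17.2 and 17.4 bases under DMSO and 18.1, 17.9 and 18.0 bases under L67, and counted once it was 18.9, 19.9 and 19.9 against 20.8, 20.3 and 20.1 bases, both without overlap. Coding ends kept whole were rare, at 0.02%, 0.96% and 1.03% of joints under DMSO and 0.82%, 0.97% and 0.82% under L67. At 61 of the 91 sites the share that had lost more than 10 bases was higher with L67 than in DMSO replicates 2 and 3.

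Bait losses were not smooth in length, since certain positions of the Jκ1 sequence shown above recurred. The most frequent with L67 was a loss of 16 bases, which leaves the last base of the second GTGGAG repeat at the joint, as in the 4-bp joint of Igkv1-135 above. Joints with that loss were 5.80%, 8.90% and 7.97% of all Vκ joints under DMSO and 10.0%, 9.45% and 9.42% under L67. Counted once they were 5.74%, 7.91% and 7.69% under DMSO and 8.81%, 8.27% and 8.25% under L67. In both counts all 3 L67 libraries exceeded all 3 DMSO libraries. A loss of 9 bases went the other way, at 11.9%, 5.80% and 5.51% under DMSO and 5.04%, 5.37% and 5.45% under L67, but most of that difference came from DMSO replicate 1, and counted once the groups overlapped.

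**Figure D2:**
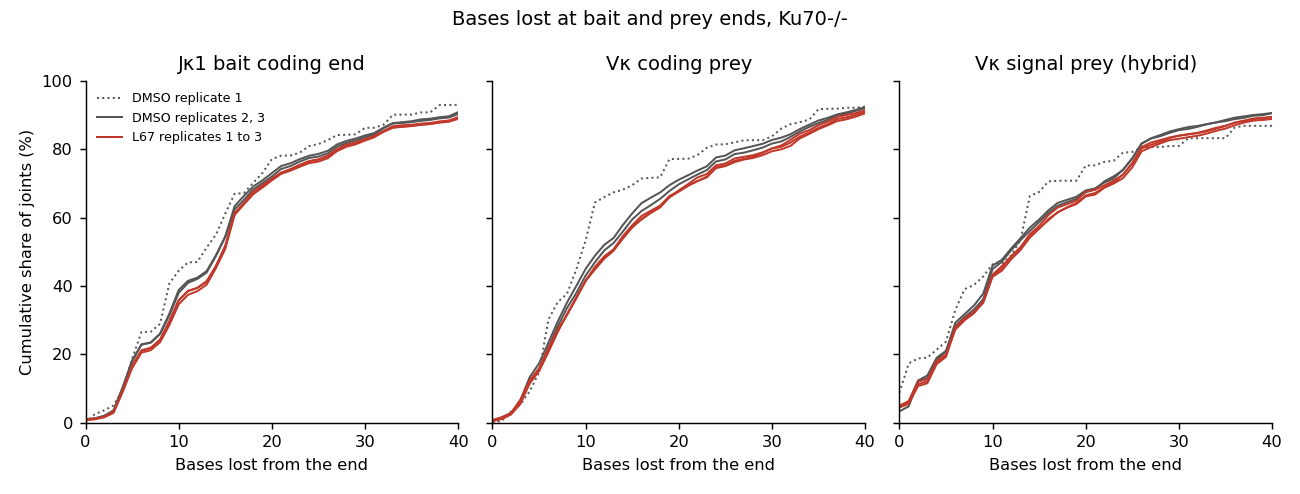
Cumulative share of Vκ joints (y axis, percent) against bases lost (x axis, 0 to 40) for the Jκ1 bait, coding preys and signal preys, with 1 line per library. At 10 bases every L67 line lies below every DMSO line in each panel, the greater loss, while at 20 bases the signal prey line of L67 replicate 3 lies above that of DMSO replicate 3, and DMSO replicate 1 is highest for the bait and coding preys.

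Joint structure was read from how the bait and prey alignments meet on the read: a shared stretch is microhomology, a gap is an insertion and neither is a direct joint. Direct joints were the largest class in every library, at 48.2%, 52.0% and 53.3% under DMSO and 52.7%, 52.8% and 52.9% under L67. Microhomology of 1 bp accounted for 39.1%, 28.6% and 27.11% under DMSO and 26.7%, 27.08% and 26.99% under L67. Insertions were few, at 0.88%, 2.64% and 2.63% under DMSO and 2.43%, 2.71% and 2.22% under L67, and made up a larger share of distinct joints (12.3%, 12.1% and 34.8% in DMSO replicates 2, 3 and 1, and 10.9% to 13.3% under L67). Direct joints and insertions overlapped between the groups. The 1-bp class was lower in every L67 library, by a narrow margin against DMSO replicate 3, and with each distinct junction counted once its L67 mean was higher by 1.09 points. That reversal rested on DMSO replicate 1: counted once, the shares were 18.04%, 23.8% and 23.3% under DMSO and 23.1%, 22.4% and 22.96% under L67, so without it every L67 library was again lower.

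Microhomology longer than 1 bp was more frequent in every L67 library than in any DMSO library. It made up 11.8%, 16.7% and 16.9% of joints under DMSO and 18.2%, 17.4% and 17.9% under L67, a difference of 2.70 points (exact permutation p = 0.1, adjusted p = 0.215). Without DMSO replicate 1 the difference was 1.01 points, and with each distinct junction counted once the shares were 16.2%, 15.9% and 16.2% under DMSO and 16.6%, 16.6% and 16.7% under L67. The groups did not overlap under any of these counts. Counted once, however, DMSO replicates 1 and 3 at 16.2% and L67 replicate 1 at 16.6% were apart by less than their counting intervals. When microhomology of every length was put in 1 class, the L67 mean differed by -1.995 points, with 1-bp microhomology at its highest in DMSO replicate 1. Lengths of 2 bp were 5.69%, 10.2% and 10.1% under DMSO and 10.8%, 10.3% and 11.1% under L67, without overlap in all lines or with each distinct junction counted once. Lengths of 3 bp were 2.21%, 3.38% and 3.58% under DMSO and 3.93%, 3.74% and 3.49% under L67, which overlapped in all lines but not when counted once. Lengths of 4 bp were 1.498%, 1.53% and 1.51% under DMSO and 1.57%, 1.61% and 1.67% under L67, without overlap, but counted once they overlapped and the L67 mean was the lower (1.83% against 2.46%), which rested on DMSO replicate 1 at 3.72%: the mean of the other DMSO libraries was 1.83%. Lengths of 5, 6, 7 and 8 bp overlapped by both counts, and for 6 bp the mean over all lines was lower with L67 (0.698% against 1.103%), with DMSO replicate 1 at 2.11%. Hybrid joints used longer microhomology more than coding joints did in the 5 other libraries (18.8% to 20.2% of distinct hybrid joints, 13.8% to 15.4% of distinct coding joints). L67 did not separate from DMSO within the hybrid class. Distinct coding joints overlapped too, at 18.4%, 13.8% and 14.46% under DMSO and 15.1%, 14.51% and 15.4% under L67. Over all lines the coding class did not overlap, but its nearest libraries were DMSO replicate 3 at 15.911% and L67 replicate 2 at 15.919%.

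**Figure D3:**
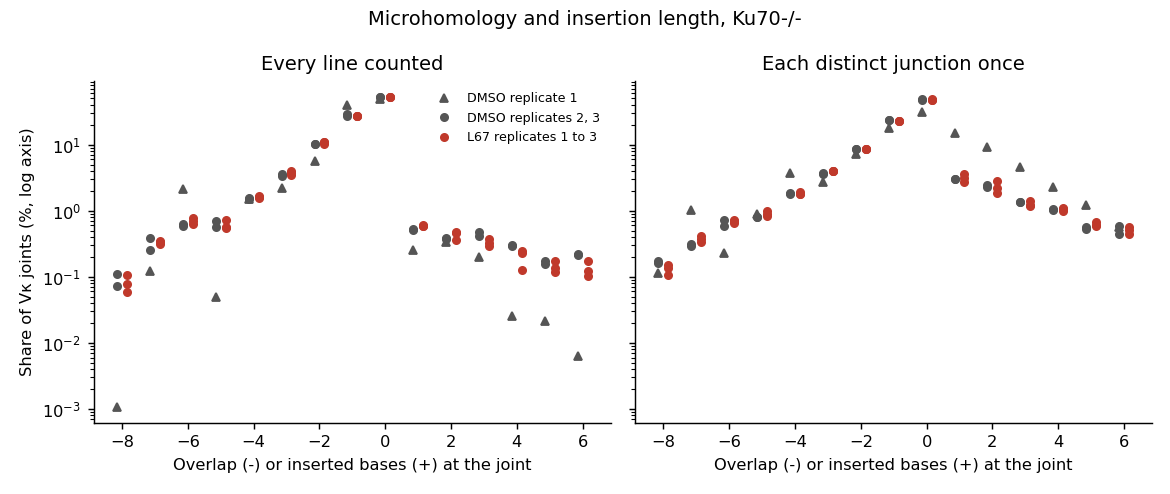
Share of Vκ joints (y axis, log scale, percent) by overlap between bait and prey in bases (x axis, negative for microhomology and positive for insertion), 1 symbol per library. The left panel counts every line and the right panel each distinct junction once. Direct joints, at 0, are the most frequent value, at 48.2% to 53.3% on the left and 30.9% to 49.4% on the right. DMSO replicate 1 departs from the other libraries at -1 and at the insertions.

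No individual Vκ site passed the test of usage in its main form, over all 6 libraries. Across 100 sites with at least 50 joints on average over the 6 libraries, limma called 0 higher and 0 lower with L67 (0% in each direction) at an adjusted p under 0.05, and the lowest adjusted p was 0.631, with 2 sites at an unadjusted p under 0.05. Without DMSO replicate 1 it called 0 of 101 (0% in each direction), with a lowest adjusted p of 0.077 and 10 sites at an unadjusted p under 0.05. The same fit was run on 1 simulated table for each set of libraries, with 30 sites changed by 1 on the log2 scale. It recovered 46.7% of them with 6 libraries and 90.0% without DMSO replicate 1, with 0 and 1 false calls. The spread between simulated libraries was set by hand, wider for DMSO replicate 1, and was not estimated from the data. These rates therefore do not give the power of the fit in the real libraries. Groups of 3 and 3 did not overlap at 20 sites (20%), 12 higher and 8 lower with L67. DMSO replicate 1 listed no joint at 14 of the 100 sites.

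The 5 sites below carried the most joints under DMSO, each a Vκ gene with a CACAGTG heptamer. Usage is given as joints per 1000 Vκ joints. Igkv1-135 stood at 37.4, 53.9 and 55.3 under DMSO and at 50.5, 53.0 and 59.3 under L67, a log2 difference of 0.17 ± 0.26 (SE, n = 3 each). Igkv6-32 stood at 30.8, 36.2 and 36.6 under DMSO and at 30.4, 32.6 and 28.6 under L67, with overlap. Igkv12-46 stood at 28.3, 36.5 and 28.8 under DMSO and at 27.8, 25.9 and 26.4 under L67, without overlap but with a log2 difference of only -0.22 ± 0.22 (SE). Igkv11-125 overlapped, at 25.3, 27.2 and 32.4 under DMSO and 33.7, 28.3 and 28.03 under L67. Igkv6-17 (ENSMUSG00000076590.2, chr6:70321463-70321987) was the site of this group with the clearest difference, at 30.7, 27.4 and 26.4 under DMSO and 18.9, 15.98 and 18.2 under L67. Its log2 difference was -0.67 ± 0.21 (SE), which did not pass (limma, adjusted p = 0.631), and -0.61 ± 0.13 without DMSO replicate 1 (limma, adjusted p = 0.194). With each distinct junction counted once and without DMSO replicate 1 it was -0.41 ± 0.11 (limma, adjusted p = 0.267).

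The 3 sites with the largest rise over all 6 libraries (Igkv18-36, Igkv17-127 and Igkv6-15) were all listed at 0 in DMSO replicate 1, and their log2 values without it were 0.59, 0.05 and 0.06. The 3 largest falls were at Igkv9-129 (-0.91), Igkv8-18 (-0.83) and Igkv6-17 (-0.67). Igkv9-129 stood at 11.5 in DMSO replicate 1 against 2.85 and 3.08 in the other DMSO libraries and 2.02, 2.83 and 2.62 under L67. Igkv13-84 was at 17.3, 4.96 and 4.24 under DMSO and at 8.11, 9.37 and 8.89 under L67, DMSO replicate 1 being the highest of all. Without it the log2 difference was 0.93 ± 0.14 (SE), which did not pass (limma, adjusted p = 0.077). Counted once without DMSO replicate 1, with sites of at least 5 distinct joints on average, 2 of 106 sites passed: Igkv13-84 (0.84, limma, adjusted p = 0.042) and Igkv5-43 (0.75, limma, adjusted p = 0.042). For Igkv5-43 the left-out library turned the direction: it stood at 27.1, 4.01 and 3.24 per 1000 joints under DMSO and at 4.70, 5.09 and 7.29 under L67, with a log2 difference of -0.34 over all 6 libraries. This count of distinct joints without DMSO replicate 1 was chosen after the values had been seen. With no filter on low values, 1 of 129 sites passed, an unannotated site at 70504435 (limma, adjusted p = 0.028). It had 0, 0 and 0 lines under DMSO and 5, 9 and 11 under L67, in each L67 library all from 1 distinct junction.

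**Figure D4:**
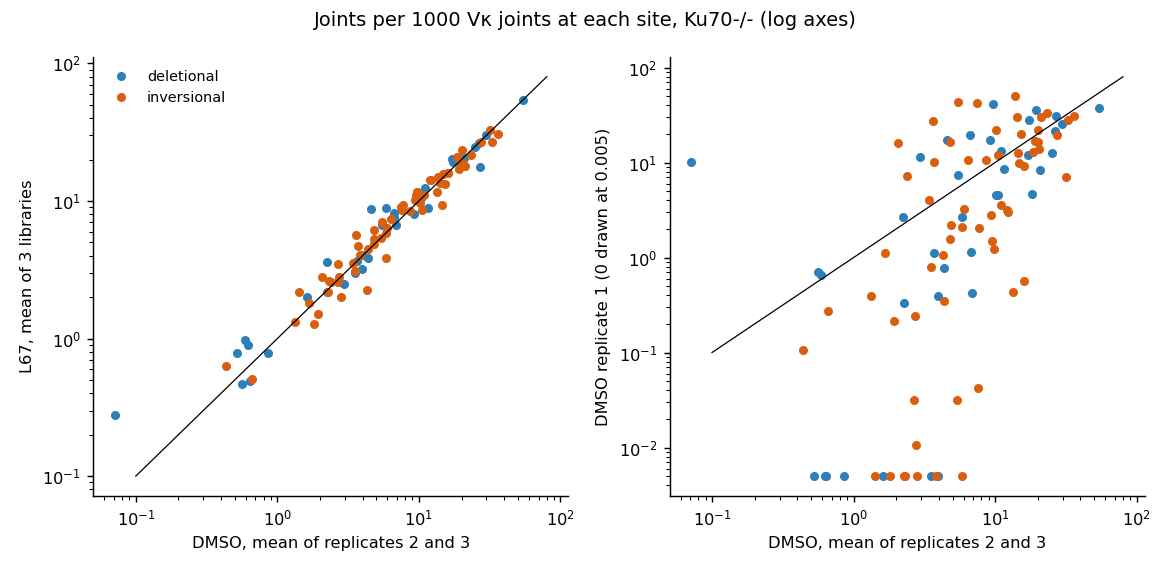
Usage of each Vκ site in joints per 1000 Vκ joints on log axes, mean of the 3 L67 libraries (left) and DMSO replicate 1 (right) against the mean of DMSO replicates 2 and 3, with sites listed at 0 drawn at 0.005. L67 sites follow the diagonal, 84 of the 99 with a value in this comparison within 0.5 on the log2 scale, while DMSO replicate 1 scatters around it and lists 14 sites at 0.

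By topological subdomain of the locus (sTAD), sTAD1-2, the farthest from Jκ, took 15.9%, 19.03% and 20.5% of Vκ joints under DMSO and 20.7%, 20.1% and 20.3% under L67, with overlap (exact permutation p = 0.3). Its mean was higher with L67 by 1.89 points over all 6 libraries and by 0.598 points without DMSO replicate 1. Counted once, its shares were 14.8%, 17.04% and 18.1% under DMSO and 18.3%, 17.9% and 18.1% under L67, again with overlap. The subdomain sTAD5, the one nearest to Jκ, took 31.6%, 38.4% and 37.7% of Vκ joints under DMSO and 35.5%, 34.4% and 34.6% under L67. Without DMSO replicate 1 its share was 3.23 points lower with L67 (exact permutation p = 0.1), and with each distinct junction counted once, over all 6 libraries, it was lower by 2.24 points without overlap. With all lines of all 6 libraries the mean difference was smaller than the spread between libraries, as it was for sTAD3 and sTAD4. Igkv6-17, Igkv6-32 and Igkv12-46 lie in sTAD5 as bounded here. The bounds of the subdomains were read from the study's map and are approximate, and Igkv12-46 lies near the bound with sTAD4.

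Within 2 kb of the bait break, in the Jκ region, junctions made up 6.53%, 6.53% and 6.80% of read pairs under DMSO and 7.38%, 7.21% and 7.15% under L67, higher in every L67 library (exact permutation p = 0.1) and by 0.584 points without DMSO replicate 1. Distinct junctions there overlapped, with 403, 2245 and 2106 under DMSO and 2735, 2394 and 2125 under L67 (exact permutation p = 0.2). Their share of distinct junctions differed by -5.11 points, and by -0.390 points without DMSO replicate 1, with overlap. As a share of all junctions the region was 1.25 points lower with L67, with overlap between the groups (exact permutation p = 0.4). Rejoining of the Jκ1 break itself, which includes the repeat joint shown above, made up 4.62%, 5.34% and 5.71% of read pairs under DMSO and 5.82%, 5.66% and 5.48% under L67, and the groups overlapped. Among distinct junctions its share was 21.0%, 9.19% and 9.10% under DMSO and 7.46%, 7.59% and 8.97% under L67, lower in every L67 library. The margin was narrow between DMSO replicate 3 at 9.10% and L67 replicate 3 at 8.97%. In number, distinct rejoined junctions overlapped, at 303, 1510 and 1390 under DMSO and 1608, 1421 and 1311 under L67. Joints to the downstream segments Jκ2 to Jκ5 made up 1.73%, 0.88% and 0.85% of read pairs under DMSO and 1.23%, 1.21% and 1.27% under L67. DMSO replicates 2 and 3 lay below all 3 L67 libraries and DMSO replicate 1 above them. Among distinct junctions the order was the same (5.95%, 3.16% and 3.40% under DMSO, 3.99%, 3.88% and 4.18% under L67).

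Inside the Vκ region but more than 200 bp from any break site, 1980, 3273 and 3249 junctions were listed under DMSO and 4504, 3968 and 5212 under L67. Distinct junctions there were 38, 501 and 428 under DMSO and 767, 570 and 525 under L67, again with no overlap. As a share of all junctions they were 1.49%, 2.13% and 2.16% under DMSO and 2.75%, 2.35% and 3.02% under L67. Of distinct junctions they made up overlapping shares, at 2.63%, 3.05% and 2.80% under DMSO and 3.56%, 3.04% and 3.59% under L67 (exact permutation p = 0.2).

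Translocations, junctions of the Jκ1 bait with any other chromosome, were listed more often in every L67 library than in any DMSO library. Off chromosome 6 there were 1423, 1617 and 1554 junctions under DMSO and 2180, 2375 and 2223 under L67. The log2 counts differed by 0.56 ± 0.07 (SE, n = 3 each), without overlap (exact permutation p = 0.1, adjusted p = 0.215). As a share of all junctions they were 1.07%, 1.05% and 1.03% under DMSO and 1.33%, 1.41% and 1.29% under L67. Distinct translocations numbered 73, 295 and 273 under DMSO and 457, 386 and 291 under L67, which overlapped. Of distinct junctions they made up 5.05%, 1.80% and 1.79% under DMSO and 2.12%, 2.06% and 1.99% under L67. DMSO replicate 1 lay above every L67 library, so that the difference of means was -0.820 points with all 6 libraries and 0.266 points without it.

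Outside the antigen receptor loci, translocations were 358, 1011 and 1007 under DMSO and 1444, 1490 and 1519 under L67, and distinct ones 61, 219 and 195 under DMSO and 328, 278 and 217 under L67. The all-line counts did not overlap, while the distinct counts did. The Igλ light chain locus, a RAG target on chromosome 16, took 1065, 555 and 519 junctions under DMSO and 720, 858 and 625 under L67. The high value of DMSO replicate 1 came from few distinct junctions listed many times. It held 12 distinct ones, against 70 and 76 in the other DMSO libraries and 124, 103 and 70 under L67. Of the 455 distinct Igλ junctions over the 6 libraries, 450 (98.9%) fell in 6 clusters, at Iglv1, Iglv2, Iglv3, Iglc2, Iglc3 and a position with no annotated gene. The names are those of the gene models at each position. The clusters named Iglc2 and Iglc3 lie beside CACAATG and CACAGTG, so these names need not mean joints in the constant segments. Joint structure was taken only from translocations outside the antigen receptor loci. Among these, direct joints were 34.2%, 47.6% and 45.6% under DMSO and 49.7%, 49.6% and 48.6% under L67, higher in every L67 library. Among the distinct ones direct joints overlapped, at 6.67%, 37.96% and 31.8% under DMSO and 39.3%, 36.0% and 42.8% under L67 (exact permutation p = 0.2). Over all lines of the same set, microhomology longer than 1 bp made up 29.1%, 21.6% and 26.2% under DMSO and 18.9%, 20.3% and 22.7% under L67, the groups overlapping.

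In WT cells, which keep the classical pathway, V-J efficiency was 72.4%, 68.9% and 69.2% under DMSO and 66.7%, 65.0% and 67.3% under L67, lower by 3.82 points without overlap. The L67 effect thus differed between Ku70-/- and WT cells by 7.03 points (exact permutation p = 0.005 over 400 exchanges within genotype, adjusted p = 0.025 over 5 measures). That test assumes no L67 effect in either genotype, so a small p does not by itself show unequal effects. A p of 0.005 is the smallest it can give with these libraries. Without DMSO replicate 1 the difference between genotypes was 5.97 points (exact permutation p = 0.01). With each distinct junction counted once it was 1.08 points and did not pass (exact permutation p = 0.29). In the share of all junctions that were Vκ joints, the difference between genotypes was 0.112 points (exact permutation p = 0.89), while all listed junctions per read pair differed by 8.48 points (exact permutation p = 0.005). For the other measures compared, the differences did not pass: hybrid share -0.447 points (exact permutation p = 0.91), share within 10 bp -4.27 points (exact permutation p = 0.09), microhomology longer than 1 bp 2.29 points (exact permutation p = 0.225) and log2 translocations 0.12 (exact permutation p = 0.77). Within WT cells, microhomology longer than 1 bp averaged 2.51% with L67 and 2.09% with DMSO, without overlap. The hybrid share, the share within 10 bp and log2 translocations overlapped there. Translocations in WT cells numbered 253, 284 and 334 under DMSO and 328, 543 and 336 under L67.

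**Figure D5:**
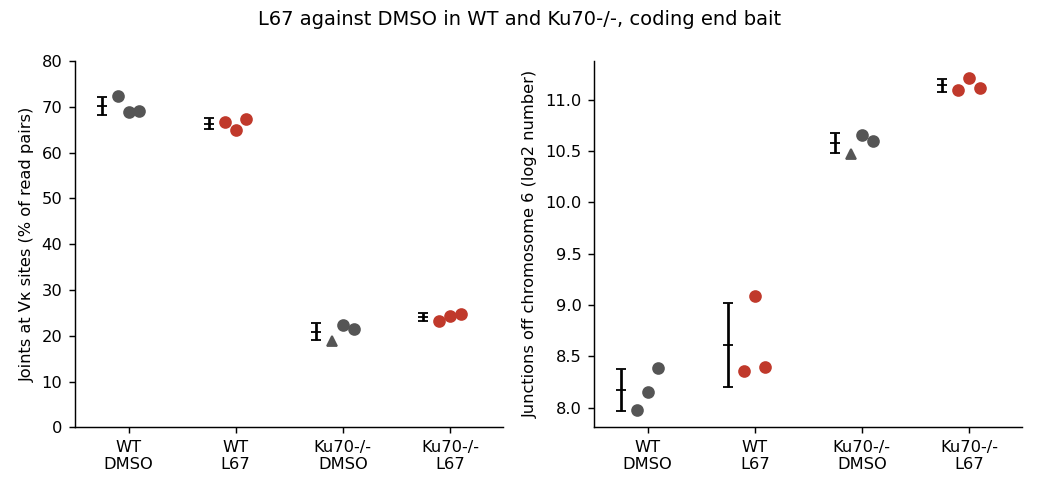
V-J efficiency (left, percent of read pairs) and log2 junctions off chromosome 6 (right) in WT and Ku70-/- cells under DMSO and L67, 3 libraries each, with the mean ± SD. L67 lies above DMSO in Ku70-/- cells (23.2% to 24.9% against 18.8% to 22.4%) and below it in WT cells (65.0% to 67.3% against 68.9% to 72.4%).

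Ku70-/- cells given L82-G17, another DNA ligase inhibitor, were measured at a different dose (25 µM), so their values are set beside these with no comparison. V-J efficiency was 20.7%, 20.5% and 21.0%, and the hybrid share 23.3%, 23.2% and 24.3%. Joints within 10 bp of the Vκ break were 38.02%, 39.0% and 38.2%, bait losses over 10 bases 64.3%, 64.2% and 63.8%, and microhomology longer than 1 bp 21.4%, 22.2% and 20.5%. Translocations numbered 1818, 2114 and 1548. Cycling Ku70-/- cells, without arrest, gave a V-J efficiency of 1.23%, 0.94% and 1.11%.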

How the data were processed

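Junctions of the Jκ1 coding end bait were measured by HTGTS-JoinT-seq in 6 Ku70-/- libraries, with 3 WT DMSO, 3 WT L67, 3 L82-G17 and 3 cycling Ku70-/- libraries beside them. The deposited lists give 1 junction per line with its mm9 coordinates and read positions. Before deposit, the authors demultiplexed and trimmed the reads, sampled every library down to 500000 read pairs (Seqtk), and ran TranslocWrapper.pl against mm9 with duplicates kept (Bowtie2 is named in the submitters' processing notes) and added bait-region junctions with a script of their own. Versions of these tools are not given in the sources used here. Keeping duplicates lets a few amplified molecules weigh heavily, so all measures were also computed with each distinct junction once. Counting once also merges a joint that formed more than once in a library.

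Vκ break sites (137) were found in the arrested WT signal end libraries, with DMSO, L67 and L82-G17 pooled. Each was a pileup of at least 30 junctions within 1 bp of a sequence that starts with CAC, as the heptamer does. The full CACAGTG stood at 111 of the 137, and 93 lie at a gene of GENCODE M1 (NCBIM37, which is mm9). A joint was given to a site within 200 bp, and was called coding or hybrid by prey strand. Percentages, log2 values and counts were made here with Python 3.11.15, pandas 2.3.3 and SciPy 1.17.1. For library means, an exact two-sided permutation test was used with Benjamini-Hochberg adjustment over 28 tests; the ANOVA of the methods was not used with 3 libraries a group. Genotypes were compared by exchanging libraries within genotype, which assumes no L67 effect in either genotype. Site usage, log2 joints per 1000 plus the value of 1 joint, was tested with limma 3.58.1 (R 4.3.3) over sites with at least 50 joints on average, and was tested on simulated data first. Named sites were the 5 most used under DMSO and, since fewer than 3 passed in either direction, the 3 largest differences each way, while other named sites were chosen after their values were seen. Alternatives included leaving out each library, other windows, denominators, filters and the larger sequencing run alone. The libraries, lists and tests were chosen with earlier results of these data known.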

Additional observations from a re-analysis of the deposited data

Results flagged for a closer look

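The effect of L67 on V-J efficiency differed between genotypes by 7.03 percentage points: it was higher than DMSO by 3.21 points in Ku70-/- cells and lower by 3.82 points in WT cells, in 3 of 3 libraries each against every DMSO library of the same genotype (exact permutation p = 0.005, adjusted p = 0.025 over 5 measures). The difference was 5.97 points without DMSO replicate 1 (exact permutation p = 0.01). With each distinct junction counted once it was 1.08 points (exact permutation p = 0.29), and as a share of all junctions 0.112 points (exact permutation p = 0.89). Total junctions as a percentage of read pairs differed between genotypes by 8.48 points (exact permutation p = 0.005). The permutation test assumes no L67 effect in either genotype, so it does not test whether the effects were equal. The part that recovery of junctions played was not tested.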

How the results depend on the processing

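Of 335 alternative values, 294 kept the direction and the side of the threshold, 36 reversed, 3 weakened and 2 counts moved. Directions held under every alternative run for total junctions, prey distances within 10 bp, bait losses over 10 bases and the log2 count of translocations off chromosome 6, though the translocations' share of distinct junctions was -0.820 points with all 6 libraries. They held for V-J efficiency and microhomology longer than 1 bp except under the settings given next. As a share of all junctions in place of read pairs, V-J efficiency was -0.0419 points, the Jκ region -1.25, the rejoined Jκ1 break -1.09, Jκ2 to Jκ5 -0.393, and the genotype differences 0.112 for V-J efficiency and -0.166 for log2 translocations. With microhomology of all lengths in 1 class the difference was -1.995 points. With each distinct junction counted once, the hybrid share was 1.02 points, the log2 coding to hybrid ratio -0.0630, 1-bp microhomology 1.09, insertions -7.43, sTAD4 2.31, deletional sites -0.313, and the genotype differences 0.779 for hybrid joints, -0.0135 for microhomology longer than 1 bp and 1.08 for V-J efficiency. Counted once without DMSO replicate 1, an alternative chosen after seeing the data, the hybrid share was 1.02, the ratio -0.0629, intact bait -0.127, sTAD3 0.207, sTAD4 1.83 and the rejoined break -0.000667. Sites past the limma threshold numbered 1 with no filter and 2 when counted once without DMSO replicate 1, against 0. The causes were not tested.

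Leaving out 1 library at a time, values ran from -1.68 to 2.08 for the hybrid share, -0.13 to 0.10 for the log2 ratio, -0.0784 to 0.440 for log2 Igλ junctions, -0.0685 to 0.369 for Jκ2 to Jκ5, -1.31 to 1.15 for sTAD3, -1.55 to 1.48 for sTAD4, -3.23 to 0.153 for sTAD5, -0.120 to 0.385 for intact bait, -0.182 to 0.697 for insertions, 0 to 0.5 bp for the signal prey median, and -1.74 to 2.02 for the genotype difference in hybrid joints. V-J efficiency ran from 2.16 to 3.96 and bait losses over 10 bases from 2.95 to 6.11, each lowest without DMSO replicate 1. No paired analysis was possible because the labels give no replicate numbers. Distinct translocations were few, with 73 in DMSO replicate 1.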

Other observations

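Distinct translocations outside the antigen receptor loci fell on 19 to 21 chromosomes in each library, with mitochondrial DNA counted as 1 of them where hit. The other antigen receptor loci (Igh and the T cell receptor loci) together took 0, 51 and 28 junctions under DMSO and 16, 27 and 79 under L67, and mitochondrial DNA 68, 17 and 0 under DMSO and 45, 27 and 16 under L67, with overlap in both. Joint structure was again taken only from translocations outside the antigen receptor loci. Among the distinct ones, microhomology longer than 1 bp made up 43.3%, 32.4% and 25.13% under DMSO and 21.8%, 24.4% and 25.12% under L67. The exact permutation p was 0.1, the smallest possible. DMSO replicate 3 and L67 replicate 3, the nearest of the 2 groups, could not be told apart at this depth, and the difference of -9.86 points was -5.01 points without DMSO replicate 1.

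The Igλ cluster with no annotated gene (chr16:19063301-19063606) held 1045 of the junctions of DMSO replicate 1, from 9 distinct junctions, against 142 and 69 in the other DMSO libraries and 158, 112 and 112 under L67. Iglv1 took 2, 152 and 174 junctions under DMSO and 209, 256 and 148 under L67, with overlap. Iglc2 took 0, 40 and 35 under DMSO and 60, 114 and 113 under L67, and Iglv2 0, 37 and 45 under DMSO and 83, 82 and 55 under L67, both without overlap in listed junctions. Their distinct junctions were 0, 7 and 10 under DMSO and 15, 15 and 15 under L67 at Iglc2, and 0, 3 and 5 under DMSO and 13, 7 and 5 under L67 at Iglv2, where the groups met. Iglc3 (18, 164 and 144 under DMSO, 160, 195 and 197 under L67), Iglv3 (0, 20 and 52 under DMSO, 47, 60 and 0 under L67) and the cluster with no annotated gene overlapped.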
